A study of Homo sapiens with 13 samples.

Results

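Genes of voltage-gated and transient receptor potential (TRP) ion channels were followed through an in vitro model of the human germline. They were taken by gene name: potassium channels and their subunits (KCN), voltage-gated and epithelial sodium channels (SCN and SCNN), voltage-gated calcium channels (CACNA, CACNB, CACNG and CACNA2D), pacemaker channels (HCN), CLC chloride channels and exchangers (CLCN), and TRP channels of the A, C, M and V families. Of the 9706 genes listed in the 3 deposited expression tables, 117 had such a name. They comprised 60 potassium channel genes, 15 sodium channel genes, 19 calcium channel genes, 2 pacemaker genes, 6 CLC genes, 14 TRP genes and TRPC5OS, which the name rule takes in but whose name marks it as a gene on the opposite strand of TRPC5 and not a channel subunit.

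RNA was sequenced in bulk from 5 groups of human WIS2 embryonic stem cells and their progeny, with 2 libraries in each group. The 4i ESC group held stem cells with NANOS3-tdTomato and DMRT1-Venus reporters, grown on mouse feeder cells in a medium with 4 kinase inhibitors and sorted for alkaline phosphatase (TNAP). From the same line came N3+PGCLC, cells resembling primordial germ cells (PGCLC). They were induced by 500 ng of BMP2, 100 ng of SCF and 50 ng of EGF in each ml with 10 µM of a ROCK inhibitor, and cells with both TNAP and NANOS3 were sorted. For DM+PGCLC, the medium of PGCLC was changed on day 3 to one with 100 ng of activin A in each ml and 20 µM retinoic acid beside SCF and EGF, culture went on for 6 days, and the labels again name a sort for TNAP and NANOS3. DZ+PGCLC came from a different WIS2 reporter line with DAZL-tdTomato, a SOX17 transgene switched on by dexamethasone and a DMRT1 transgene switched on by doxycycline. After 1 day in the PGCLC cytokines with dexamethasone they received activin A, retinoic acid, SCF, EGF and both inducers, and the cells with DAZL signal were collected by sorting, on day 4 for d4 DZ+PGCLC and on day 8 for d8 DZ+PGCLC. The labels give 2 days of both inducers for d4 and d8 alike although the sort days differ. For DAZL-positive cells measured by RT-qPCR, the study states 4 and 8 days of transgene induction. The labels of the sequenced libraries differ from that account on the length of induction behind each d8 minus d4 difference. Between DZ+PGCLC and the other groups, reporter line, transgenes, medium, days of culture and sort all differ, and their effects cannot be told apart.

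Voltage-gated potassium, sodium and calcium channels open when the membrane potential changes, and in neurons and muscle they shape the action potential and let in the calcium that drives transmitter release and contraction. Inward rectifier and two-pore domain potassium channels stay open near the resting potential and hold it. TRP channels are cation channels gated by lipids, ligands, temperature or calcium, and several CLC proteins exchange chloride for protons in endosomes and lysosomes. Stem cells and germ cells are not electrically excitable in the way that neurons are, and channels in them are mainly known for setting the resting potential, volume, calcium entry and the pH of organelles.

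Levels are given in RPKM (reads scaled by the length of the transcript and by library size), recovered from the deposited log2(RPKM + 0.1). Differences are differences of log2(RPKM + 0.1) with their standard error (SE) and understate the change of genes near 0. A gene was called where the fold was over 2 and the adjusted p under 0.05 in limma, fitted on all 9706 listed genes and all 10 libraries, with Benjamini-Hochberg adjustment. The study's methods call the 2 libraries of a group independent biological replicates, and the labels do not say what was independent (culture, clone or day). As the libraries are bulk, fewer cells of a type and less RNA per cell cannot be told apart. A gene stands in the tables only if the authors' fit put it at an FDR under 0.05 in at least 1 of N3+PGCLC, DM+PGCLC and d8 DZ+PGCLC when each was set against 4i ESC. Differences from 4i ESC are therefore described beside the share of all listed genes called in the same comparison. Those listed genes are also what the comparisons between stages are read against.

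Depth, judged from the step that 1 read makes in low genes, was lowest for replicate 2 of d4 DZ+PGCLC (0.665 of that of 4i ESC replicate 1) and highest for replicate 1 of d8 DZ+PGCLC (1.13), which limits the genes at a few reads. Of the markers checked against the labels, the 8 early germ cell markers (SOX17, PRDM1, NANOS3 and others) summed to 759 to 1323 RPKM in N3+PGCLC and 793 to 962 RPKM in DM+PGCLC, against 115 to 131 RPKM in 4i ESC. In DZ+PGCLC they summed to 124 to 151 RPKM on day 4 and 224 to 237 RPKM on day 8, of which SOX17, a transgene in these cells, supplied 108 and 83.5 RPKM on day 4 and 202 and 189 RPKM on day 8. NANOS3 was at most 0.256 RPKM in DZ+PGCLC, and KIT, PDPN and TFAP2C were called lower there than in 4i ESC on both days. SOX17 and TFCP2L1 were called higher than in 4i ESC on both days, and PRDM1 on day 4. TFCP2L1 stood at 13 and 16 RPKM on day 4 and 11.6 and 9.52 RPKM on day 8, against 2.45 and 2.96 RPKM in 4i ESC. PRDM1 stood at 21.3 and 16 RPKM on day 4, against 2.53 and 4.24 RPKM in 4i ESC. DAZL, the gene behind the sort, stood at 11.3 and 4.14 RPKM in d4 DZ+PGCLC and at 2.31 and 4.51 RPKM in d8 DZ+PGCLC. The 2 N3+PGCLC libraries stood apart from each other in MYL7, an atrial myosin light chain, at 5.92 and 33.1 RPKM. Of the other cardiac markers, NKX2-5 stood at 0.43 and 2.12 RPKM, RYR2 at 0.444 and 0.664 RPKM and ACTN2 at 0.902 and 0.775 RPKM. Markers from other lists also differed between these libraries, with KDR at 14.4 and 38.8 RPKM, ZIC2 at 0.674 and 17.1 RPKM and OTX2 at 0.259 and 4.6 RPKM.

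Channel genes were expressed in every group. In a library, 49 to 64 of the 117 reached 1 RPKM, 9 to 15 reached 10 RPKM and 5 to 13 were listed at 0. Of the 117, 86 reached 1 RPKM in at least 2 libraries and 31 did not. The group with the highest mean was 4i ESC for 29 genes, N3+PGCLC for 16, DM+PGCLC for 28, d4 DZ+PGCLC for 16 and d8 DZ+PGCLC for 28. In the summed RPKM of all 117, 4i ESC stood at 440 and 468, N3+PGCLC at 727 and 543, DM+PGCLC at 803 and 1056, d4 DZ+PGCLC at 361 and 460 and d8 DZ+PGCLC at 445 and 409. The DM+PGCLC libraries were the highest, and CACNA2D2 alone supplied 284 and 463 RPKM of their sums.

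**Figure D1:**
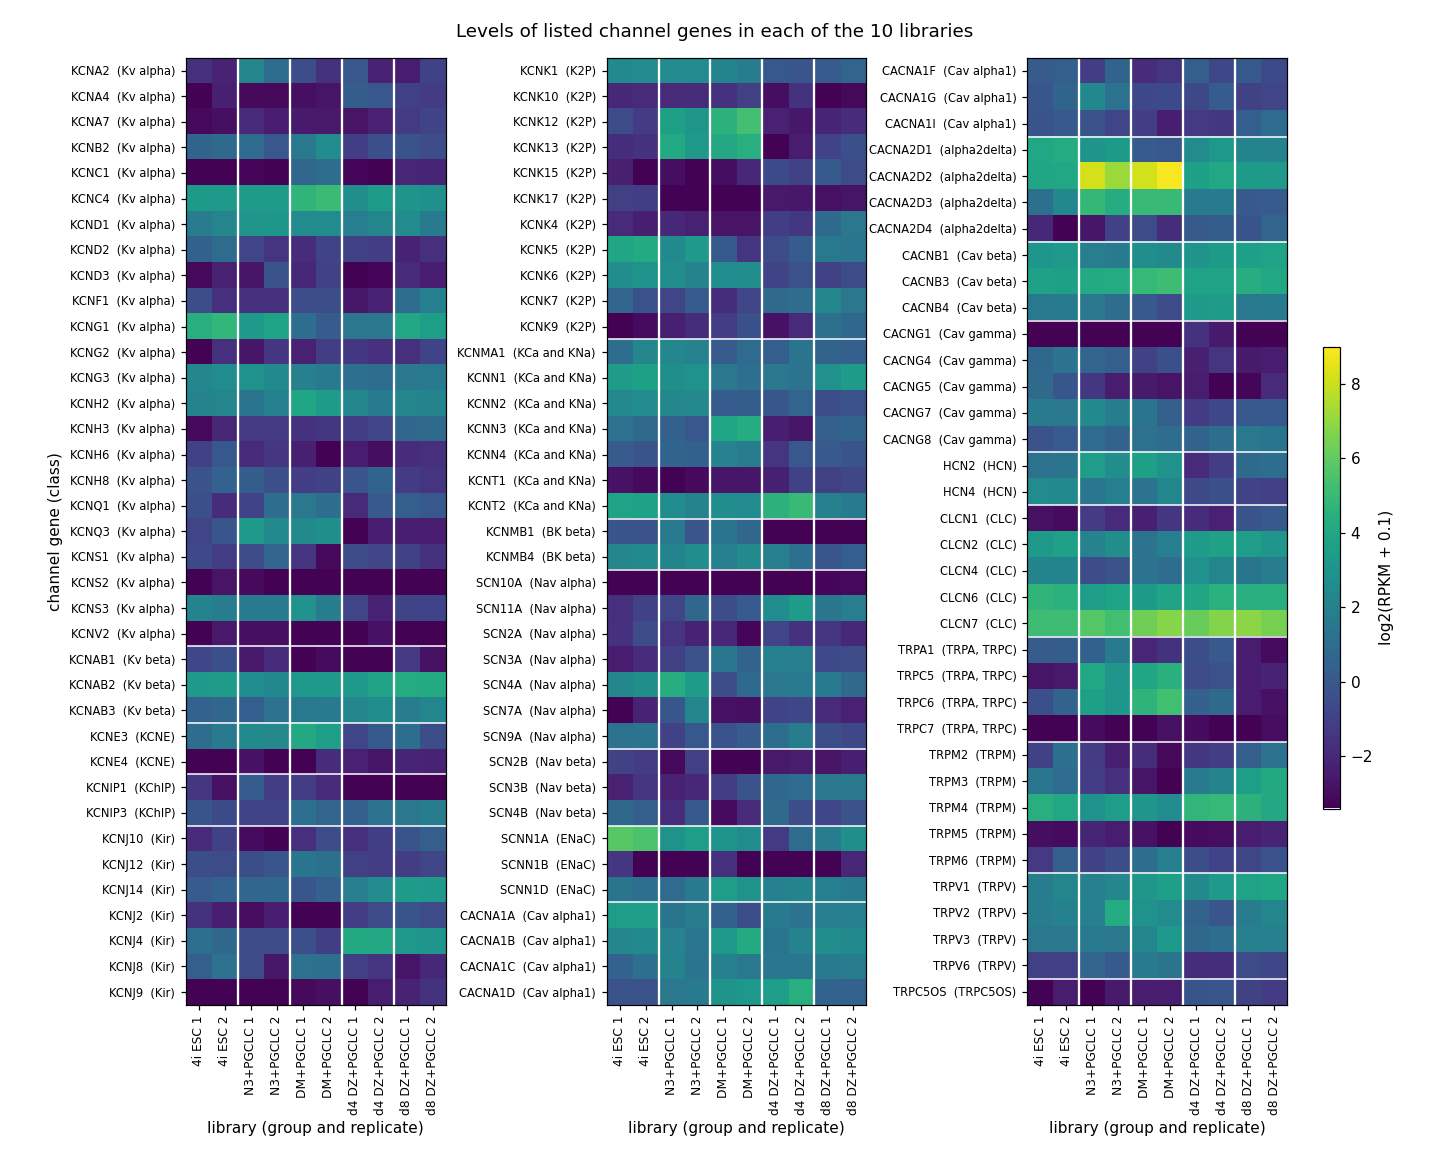
Heat map of the level, as log2(RPKM + 0.1), of 110 of the 117 channel genes (rows, with the class in brackets) in each of the 10 libraries (columns, from 4i ESC to d8 DZ+PGCLC). Brighter cells are higher levels, white lines part groups and classes, and the brightest row is CACNA2D2 in N3+PGCLC and DM+PGCLC.

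At least 1 of the 7 comparisons called 102 of the channel genes, and 15 were called in none. Listing itself required a difference from 4i ESC, so a high count is largely set by that selection. The share of all listed genes called at least once is not given, and the count says nothing particular to channel genes. For the single comparisons, shares of all listed genes called higher and lower are given beside each count. N3+PGCLC had 16 channel genes higher than 4i ESC and 18 lower (29.1% called, beside 26.1% of all listed genes, 13.8% higher and 12.3% lower). DM+PGCLC had 32 higher and 37 lower (59% called, beside 44.1%, 23% higher and 21.1% lower). In d4 DZ+PGCLC 21 were higher and 30 lower (43.6% called, beside 42%, 17.3% higher and 24.6% lower), and in d8 DZ+PGCLC 27 were higher and 29 lower (47.9% called, beside 55.9%, 28.5% higher and 27.4% lower). These 4 comparisons share the 4i ESC libraries, and 3 of them chose which genes were listed.

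The comparisons between stages did not choose the listed genes, though they share libraries with those that did. DM+PGCLC minus N3+PGCLC had 22 channel genes higher and 16 lower (32.5% called, beside 25.9% of all listed genes, 13.9% higher and 12.1% lower). Of the channel genes in d8 DZ+PGCLC minus DM+PGCLC, 34 were higher and 32 lower (56.4% called, beside 55.7%, 28.1% higher and 27.5% lower). Between the DZ+PGCLC days (d8 minus d4), 20 were higher and 13 lower (28.2% called, beside 23.7%, 15.4% higher and 8.3% lower). Leaving out 1 library cut 3 of these counts by over 1.5 times. The count in N3+PGCLC minus 4i ESC was 34, and 19 without 4i ESC replicate 1 and 18 without replicate 2. That in DM+PGCLC minus N3+PGCLC was 38, and 24 without N3+PGCLC replicate 2 and 21 without DM+PGCLC replicate 2. That in d8 minus d4 DZ+PGCLC was 33, and 19 without d8 replicate 1 and 14 without replicate 2. The shares lay within 10 percentage points of those of all listed genes except in DM+PGCLC minus 4i ESC.

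**Figure D2:**
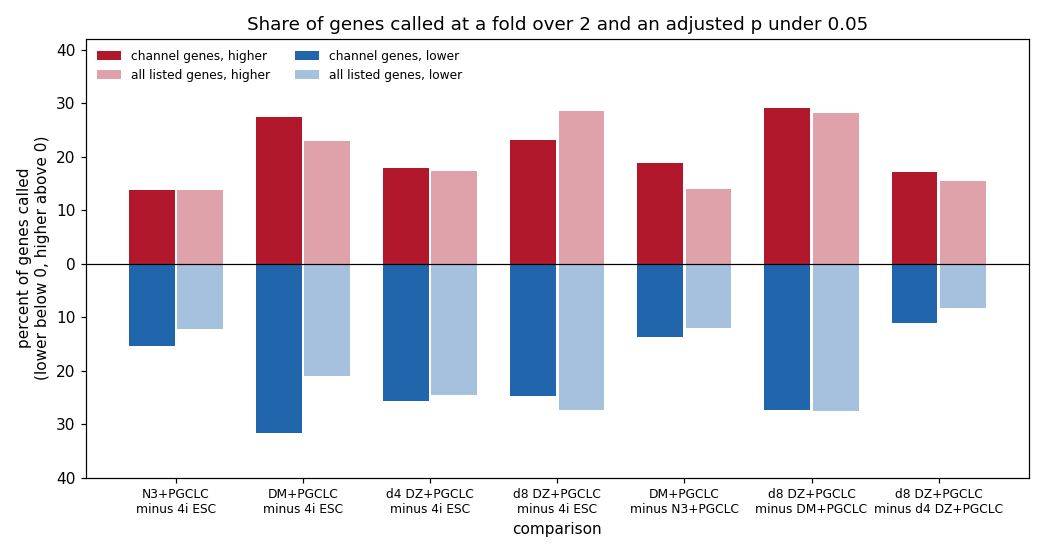
Percent of genes called in each of the 7 comparisons, higher above 0 and lower below 0. Dark bars are the 117 channel genes and pale bars all 9706 listed genes, and the dark and pale bars differ most in DM+PGCLC minus 4i ESC (59% and 44.1% called in either direction).

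Neither direction prevailed among the channel genes, whose median log2 difference lay between -0.18 and 0.25 in the 7 comparisons (-0.10 to 0.19 for all listed genes). The median size of the differences was larger than that of all listed genes in 6 of the 7. The 2 sets were unlike in level. The median level in a library was 0.6 to 1.32 RPKM for the channel genes and 4.25 to 5.79 RPKM for all listed genes. The part of this lower level in the sizes was not tested. The median size was 1.36 in DM+PGCLC minus 4i ESC (0.99 for all listed genes) and 1.47 in d8 DZ+PGCLC minus DM+PGCLC (1.28). In d8 DZ+PGCLC minus 4i ESC it was 1.24, beside 1.26 for all listed genes. Lower than 4i ESC in all 4 groups were 6 genes (CACNA1A, CACNG5, KCNAB1, KCND2, KCNK17 and SCNN1A), and higher in all 4 were KCNH3 and SCN3A. These 4 comparisons share the 4i ESC libraries, and the share of all listed genes called in all 4 is not given. The counts therefore say nothing particular to channel genes. Some of these genes were low, with means in 4i ESC of 0.379 RPKM for KCNK17 and 0.0764 RPKM for KCNH3.

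The largest differences between stages fell on members that moved from a high level in N3+PGCLC and DM+PGCLC to a low one in DZ+PGCLC, or the other way. Promoters are shown for 5 of those with a single start site in the RefSeq table, KCNK13, TRPC6 and KCNE3 as genes highest in N3+PGCLC or DM+PGCLC and KCNJ4 and KCNJ14 as genes highest in DZ+PGCLC. Each is the 250 bases before the RefSeq start (GRCh38.p14), 5' to 3' on the gene's strand, at chr14:90061744-90061993 (KCNK13, plus strand), chr11:101584008-101584257 (TRPC6, minus strand), chr11:74467550-74467799 (KCNE3, minus strand), chr22:38444029-38444278 (KCNJ4, minus strand) and chr19:48455324-48455573 (KCNJ14, plus strand). The table held 78 of the 117 channel genes, under 80%, so base composition and motif shares were not compared between channel genes and other genes. Capitals mark matches, on either strand, to the core motif of DMRT1 (ACATTGT), the half-site of retinoic acid receptors (AGGTCA), the site of TFAP2 factors (GCCNNNGGC), the box bound by SP factors (GGGCGG, the GC box) and the box bound by TBP (TATAAA).
KCNK13: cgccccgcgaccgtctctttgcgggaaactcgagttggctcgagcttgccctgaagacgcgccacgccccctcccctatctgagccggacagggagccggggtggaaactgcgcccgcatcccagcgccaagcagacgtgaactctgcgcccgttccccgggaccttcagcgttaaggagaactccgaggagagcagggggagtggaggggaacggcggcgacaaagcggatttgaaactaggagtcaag
TRPC6: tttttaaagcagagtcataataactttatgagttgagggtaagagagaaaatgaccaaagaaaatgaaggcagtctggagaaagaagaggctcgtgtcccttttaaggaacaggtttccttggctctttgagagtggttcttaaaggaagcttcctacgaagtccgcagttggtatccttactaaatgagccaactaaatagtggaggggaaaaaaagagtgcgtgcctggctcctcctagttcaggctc
KCNE3: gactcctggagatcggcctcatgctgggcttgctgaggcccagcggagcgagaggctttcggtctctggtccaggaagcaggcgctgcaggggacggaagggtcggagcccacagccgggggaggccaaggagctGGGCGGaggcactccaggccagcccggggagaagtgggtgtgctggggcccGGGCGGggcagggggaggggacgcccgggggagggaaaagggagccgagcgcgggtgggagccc
KCNJ4: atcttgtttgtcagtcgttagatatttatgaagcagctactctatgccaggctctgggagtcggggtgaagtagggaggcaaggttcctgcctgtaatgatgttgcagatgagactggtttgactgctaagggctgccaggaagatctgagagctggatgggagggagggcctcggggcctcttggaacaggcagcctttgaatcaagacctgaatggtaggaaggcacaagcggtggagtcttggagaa
KCNJ14: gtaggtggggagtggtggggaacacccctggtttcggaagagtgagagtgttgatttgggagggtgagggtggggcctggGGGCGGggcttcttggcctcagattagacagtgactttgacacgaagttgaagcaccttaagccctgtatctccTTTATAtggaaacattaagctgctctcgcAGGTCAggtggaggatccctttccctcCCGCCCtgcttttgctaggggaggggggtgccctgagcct

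Of all 35116 promoters in that table, 2% held ACATTGT, 12.1% AGGTCA, 19.8% GCCNNNGGC, 42.6% GGGCGG and 10.7% TATAAA. KCNK13, TRPC6 and KCNJ4 held none of them in this window. KCNE3 held 2 GC boxes, and KCNJ14 held 2 GC boxes, 1 AGGTCA and 1 TATAAA, the last read on the opposite strand. KCNK13 and KCNE3 had 25 and 17 CpG dinucleotides and 64.8% and 73.2% G and C, against 4, 4 and 5 CpG dinucleotides and 43.2%, 52.4% and 57.2% G and C in TRPC6, KCNJ4 and KCNJ14. In these windows the 3 genes high in N3+PGCLC or DM+PGCLC thus differed among themselves as much as from the 2 genes high in DZ+PGCLC. For TRPC6 and KCNJ4 the window lies inside the GENCODE span of the gene given below, which begins further upstream. Which start site these cells used was not tested, so the windows may not be the promoters in use.

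AAmong the 26 genes for voltage-gated potassium channel alpha subunits, the pore-forming chains, KCNQ3 was high in N3+PGCLC and DM+PGCLC. In neurons its product is part of the M-channel, which damps repetitive firing. KCNQ3 stood at 0.477 and 0.839 RPKM in 4i ESC, 9.59 and 5.77 in N3+PGCLC, 5.66 and 6.87 in DM+PGCLC, 0 and 0.0861 in d4 DZ+PGCLC and 0.0938 and 0.0804 in d8 DZ+PGCLC. All N3+PGCLC and DM+PGCLC libraries were above 5 RPKM and every other library below 1 RPKM. KCNQ3 was called higher than in 4i ESC in N3+PGCLC (log2 difference 3.36 ± 0.46 SE, adjusted p = 0.00211) and in DM+PGCLC (3.11 ± 0.46, adjusted p = 0.0012), and lower in d8 DZ+PGCLC than in DM+PGCLC (-5.08 ± 0.46, adjusted p = 9.03e-05).

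The Kv3 genes KCNC1 and KCNC4, whose channels close fast and allow rapid firing, were both highest in DM+PGCLC. KCNC4 was the most abundant alpha subunit of that group at 26.1 and 33.4 RPKM, against 10.8 and 10.4 RPKM in N3+PGCLC (1.47 ± 0.24, adjusted p = 0.00382). In d8 DZ+PGCLC it stood at 8.02 and 7.08 RPKM, lower than in DM+PGCLC (-1.96 ± 0.24, adjusted p = 0.000336). KCNC1 was nearly confined to DM+PGCLC, with 1.51 and 1.96 RPKM there, 0.137 and 0.127 RPKM in d8 DZ+PGCLC, 0 in both 4i ESC libraries and under 0.01 RPKM in the other libraries. KCNH2, the gene of the hERG channel that repolarises heart muscle, followed with 14.7 and 10.7 RPKM in DM+PGCLC against 2.47 and 4.06 RPKM in N3+PGCLC (1.95 ± 0.31, adjusted p = 0.00352). No library of another group was above 4.8 RPKM for it.

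Modifier subunits do not form channels alone but change those that do. KCNG1 was the most abundant Kv gene of 4i ESC at 21 and 28 RPKM. It stood at 9.33 and 13.6 RPKM in N3+PGCLC, 2.01 and 1.05 in DM+PGCLC, 2.8 and 2.73 in d4 DZ+PGCLC and 15.9 and 11.4 in d8 DZ+PGCLC. Both d8 libraries were thus above those of d4 DZ+PGCLC (2.25 ± 0.35, adjusted p = 0.00367) and of DM+PGCLC (3.12 ± 0.35, adjusted p = 0.000213). KCNF1, another modifier, was also highest on day 8, with 1.9 and 3.78 RPKM in d8 DZ+PGCLC against 0.0639 and 0.123 RPKM in d4 DZ+PGCLC (3.87 ± 0.5, adjusted p = 0.00221). KCNS3 was the reverse, at 0.448 and 0.429 RPKM in d8 DZ+PGCLC against 7.2 and 3.56 RPKM in DM+PGCLC (-3.26 ± 0.53, adjusted p = 0.00122).

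KCNA4 and KCNH3 were further alpha subunits highest in DZ+PGCLC. KCNA4, an A-type channel gene, stood at 1.09 and 0.869 RPKM in d4 DZ+PGCLC against 0 and 0.105 RPKM in 4i ESC (2.91 ± 0.34, adjusted p = 0.000416), and KCNH3, a channel gene known from forebrain, at 1.54 and 1.74 RPKM in d8 DZ+PGCLC against 0.0151 and 0.138 RPKM in 4i ESC (3.39 ± 0.38, adjusted p = 0.000276). KCND2, another A-type gene, was lower in all 4 groups, at 0.117 to 0.462 RPKM in their libraries against 1.28 and 1.88 RPKM in 4i ESC. KCNA2 was highest in N3+PGCLC (4.68 and 1.85 RPKM). Further alpha subunit genes were KCNA7, KCNB2, KCND1, KCND3, KCNG2, KCNG3, KCNH6, KCNH8, KCNQ1, KCNS1, KCNS2 and KCNV2. Of these, KCND3, KCNG2, KCNQ1, KCNS2 and KCNV2 were called in no comparison, and KCNS2 and KCNV2 stayed under 0.1 RPKM in every library. Of the 26 alpha subunit genes, 7 were called in N3+PGCLC minus 4i ESC (26.1% of all listed genes), 11 in DM+PGCLC minus 4i ESC (44.1%), 11 in d4 DZ+PGCLC minus 4i ESC (42%), 12 in d8 DZ+PGCLC minus 4i ESC (55.9%) and 12 in d8 DZ+PGCLC minus DM+PGCLC (55.7%), counts near those shares.

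Among subunits that attach to Kv channels, KCNE3, a single-pass chain that locks KCNQ1 open, was highest in DM+PGCLC at 16.8 and 11.4 RPKM, against 5.71 and 5.33 RPKM in N3+PGCLC (1.31 ± 0.57, not called). It stood at 1.99 and 0.615 RPKM in d8 DZ+PGCLC, lower than in DM+PGCLC (-3.51 ± 0.57, adjusted p = 0.00121). Its partner KCNQ1 was at 2.81 and 1.99 RPKM in DM+PGCLC and was called in no comparison. KCNAB3, a cytoplasmic beta subunit, stood at 4.79 and 6.33 RPKM in d4 DZ+PGCLC against 1.31 and 1.53 RPKM in 4i ESC (1.88 ± 0.38, adjusted p = 0.00477), while KCNAB1 was under 0.7 RPKM in every library and KCNAB2 lay between 5.2 and 18.9 RPKM without a call. KCNIP3, a calcium sensor that binds Kv4 channels, stood at 2.81 and 3.37 RPKM in d8 DZ+PGCLC against 0.783 and 0.548 RPKM in 4i ESC (2.07 ± 0.41, adjusted p = 0.00311). KCNIP1 was listed at 0 in all 4 DZ+PGCLC libraries, and KCNE4 was under 0.2 RPKM in every library.

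Inward rectifiers let potassium in more readily than out. Of the 7 genes, 5 were called higher and 1 lower in d8 DZ+PGCLC than in 4i ESC (28.5% and 27.4% of all listed genes), 4 higher and 2 lower in d8 DZ+PGCLC than in DM+PGCLC (28.1% and 27.5%), and 3 higher and 1 lower in d4 DZ+PGCLC than in 4i ESC (17.3% and 24.6%). KCNJ4 (chr22:38426327-38455199, GRCh38, minus strand), whose channel Kir2.3 is a strong rectifier of brain and heart, stood at 2.08 and 1.63 RPKM in 4i ESC, 0.586 and 0.565 in N3+PGCLC, 0.669 and 0.364 in DM+PGCLC, 17.2 and 16.8 in d4 DZ+PGCLC and 9.05 and 8.4 in d8 DZ+PGCLC. All 4 DZ+PGCLC libraries lay above the other 6 libraries, the lowest at 8.4 RPKM against at most 2.08 RPKM. The difference was 3.88 ± 0.32 in d8 DZ+PGCLC minus DM+PGCLC (adjusted p = 6.4e-05), and 3.14 ± 0.32 in d4 DZ+PGCLC minus 4i ESC (adjusted p = 0.000253).

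KCNJ14 (chr19:48455574-48466980, plus strand), the Kir2.4 gene, stood at 3.58 and 5.92 RPKM in d4 DZ+PGCLC and 11 and 9.81 in d8 DZ+PGCLC, and at 0.854 to 1.57 RPKM in the other 6 libraries (3.23 ± 0.35 in d8 DZ+PGCLC minus DM+PGCLC, adjusted p = 0.00018). Its call in d8 minus d4 DZ+PGCLC (1.15 ± 0.35, adjusted p = 0.0398) was lost without d4 replicate 1 (0.179), either d8 library (0.17 and 0.128) or either 4i ESC library (0.0528 and 0.0536). GENCODE exons of GRWD1, a neighbour on the same strand, cover 6.67% of its exon bases. KCNJ2, the Kir2.1 gene, was listed at 0 in both DM+PGCLC libraries and stood at 0.781 and 0.587 RPKM in d8 DZ+PGCLC. Of the 4 Kir2 genes, KCNJ12 alone was highest in DM+PGCLC (2.53 and 2.13 RPKM, against 0.649 and 0.829 RPKM in N3+PGCLC, 1.54 ± 0.32, adjusted p = 0.009), and near-identical copies of KCNJ12 in the genome make its unique reads uncertain. KCNJ8, the pore of a channel closed by ATP, was lower in d8 DZ+PGCLC than in DM+PGCLC, at 0.0516 and 0.157 RPKM against 2.24 and 2.08 RPKM (-3.52 ± 0.67, adjusted p = 0.00262). The glial rectifier gene KCNJ10 reached 0.789 and 1.2 RPKM in d8 DZ+PGCLC, and KCNJ9 stayed under 0.24 RPKM.

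Two-pore domain channels carry background potassium current, and 10 of the 11 genes were called in d8 DZ+PGCLC minus DM+PGCLC, 5 in each direction (55.7% of all listed genes were called). KCNK12 and KCNK13 encode the THIK subfamily. KCNK13 (chr14:90061994-90185853, plus strand) stood at 0.192 and 0.232 RPKM in 4i ESC, 18 and 9.84 in N3+PGCLC, 16.8 and 20.5 in DM+PGCLC, 0 and 0.0824 in d4 DZ+PGCLC and 0.434 and 0.685 in d8 DZ+PGCLC. KCNK12 (chr2:47509290-47570985, minus strand) stood at 0.571 and 0.324 RPKM in 4i ESC, 12.3 and 8.92 in N3+PGCLC, 24 and 39 in DM+PGCLC, 0.111 and 0.0652 in d4 DZ+PGCLC and 0.129 and 0.181 in d8 DZ+PGCLC. In both genes every N3+PGCLC and DM+PGCLC library was above 8 RPKM and every other library below 1 RPKM. KCNK13 was higher in N3+PGCLC than in 4i ESC (5.43 ± 0.46, adjusted p = 0.000415) and lower in d8 DZ+PGCLC than in DM+PGCLC (-4.85 ± 0.46, adjusted p = 0.000109). For KCNK12 the same 2 differences were 4.31 ± 0.41 (adjusted p = 0.000612) and -6.92 ± 0.41 (adjusted p = 1.93e-05). Its call in DM+PGCLC minus N3+PGCLC (1.54 ± 0.41, adjusted p = 0.0259) was lost without DM+PGCLC replicate 2 (adjusted p = 0.14) or N3+PGCLC replicate 2 (adjusted p = 0.115). Some of the exon bases of KCNK12 also lie in exons on the other strand.

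KCNK1 and KCNK6, 2 genes of the TWIK subfamily, were alike in another way. They stood at 0.404 to 1.45 RPKM in the 4 DZ+PGCLC libraries and 3.44 to 7.57 RPKM in the 6 of DM+PGCLC, N3+PGCLC and 4i ESC (d8 DZ+PGCLC minus DM+PGCLC -1.63 ± 0.29, adjusted p = 0.00193, for KCNK1 and -3.41 ± 0.34, adjusted p = 0.000131, for KCNK6). KCNK5, the gene of an alkali-activated channel of kidney, was the most abundant of the class in 4i ESC. It was lower in DM+PGCLC at 0.985 and 0.248 RPKM (-4.75 ± 0.56, adjusted p = 0.000461) and in d4 DZ+PGCLC at 0.581 and 1.06 RPKM (-4.21 ± 0.56, adjusted p = 0.000746), against 15.1 and 17.8 RPKM in 4i ESC. KCNK4 and KCNK9 were highest in d8 DZ+PGCLC. KCNK4, whose channel TRAAK opens on membrane stretch, stood at 1.66 and 2.77 RPKM there against 0.0481 and 0.0498 RPKM in DM+PGCLC (3.92 ± 0.33, adjusted p = 6.46e-05), and KCNK9, the TASK-3 gene, at 2.13 and 1.58 RPKM against 0.344 and 0.686 RPKM (1.71 ± 0.42, adjusted p = 0.00873). KCNK7 (2.73 to 4.8 RPKM in d8 DZ+PGCLC) and KCNK15 (0.574 to 0.981 RPKM) were also highest there, and KCNK10 and KCNK17 were under 0.4 RPKM in every library.

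Among potassium channels opened by calcium or sodium, KCNN3 and KCNT2 set DM+PGCLC and d4 DZ+PGCLC apart. KCNN3, a small-conductance (SK) channel gene, stood at 2.21 and 1.74 RPKM in 4i ESC, 1.2 and 0.896 in N3+PGCLC, 15.2 and 19.5 in DM+PGCLC, 0.0982 and 0.0576 in d4 DZ+PGCLC and 1.18 and 1.37 in d8 DZ+PGCLC. It was higher in DM+PGCLC than in N3+PGCLC (3.93 ± 0.34, adjusted p = 0.000347), lower in d8 DZ+PGCLC than in DM+PGCLC (-3.66 ± 0.34, adjusted p = 0.0001), and higher on day 8 than on day 4 of DZ+PGCLC (2.96 ± 0.34, adjusted p = 0.00148). The other SK genes KCNN1 and KCNN2 were highest in 4i ESC (11 and 12.3 RPKM, and 5.29 and 5.79 RPKM) and lower in DM+PGCLC than in N3+PGCLC (-1.55 ± 0.26, adjusted p = 0.00394, and -2.14 ± 0.34, adjusted p = 0.00323). KCNN4, the intermediate-conductance gene, was highest in DM+PGCLC (4.12 and 3.42 RPKM).

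KCNT2, the gene of a sodium-activated channel, stood at 13.6 and 12.8 RPKM in 4i ESC, 6 and 4.37 in N3+PGCLC, 6.28 and 5.83 in DM+PGCLC, 23.6 and 30.8 in d4 DZ+PGCLC and 4.09 and 3.15 in d8 DZ+PGCLC. It was lower on day 8 than on day 4 of DZ+PGCLC (-2.87 ± 0.23, adjusted p = 0.0005). Its relative KCNT1 stayed at 0.5 RPKM or below. KCNMA1, the pore of the BK channel, lay between 1.02 and 4.9 RPKM with no call. Its smooth muscle beta subunit KCNMB1 was listed at 0 in all 4 DZ+PGCLC libraries and stood at 2.45 and 1.5 RPKM in DM+PGCLC and 2.94 and 0.813 in N3+PGCLC. KCNMB1 (chr5:170374671-170389634, minus strand) lies inside KCNIP1 (chr5:170353487-170736632, plus strand), which was also listed at 0 in those 4 libraries. The neuronal beta subunit gene KCNMB4 was lower in d8 DZ+PGCLC, at 0.841 and 1.14 RPKM, than in DM+PGCLC, at 3.81 and 5.49 RPKM (-2.12 ± 0.38, adjusted p = 0.00207).

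Voltage-gated sodium channel alpha subunits were low in most libraries. SCN4A, the channel gene of skeletal muscle, reached 19.7 and 10.6 RPKM in N3+PGCLC, against 4.97 and 6.7 RPKM in 4i ESC (not called), and DM+PGCLC stood lower than N3+PGCLC at 0.612 and 1.68 RPKM (-3.7 ± 0.53, adjusted p = 0.00217). SCN11A, the Nav1.9 gene of pain-sensing neurons (chr3:38845764-39052157, minus strand), was highest in DZ+PGCLC, at 6.16 and 10.8 RPKM on day 4 and 2.71 and 3.57 RPKM on day 8, against 0.207 and 0.406 RPKM in 4i ESC (4.39 ± 0.58, adjusted p = 0.00073, and 3.03 ± 0.58, adjusted p = 0.00288). Its call in d8 DZ+PGCLC minus DM+PGCLC (1.83 ± 0.58, adjusted p = 0.0253) was lost without DM+PGCLC replicate 1 (adjusted p = 0.117) or either d8 library (0.0762 without replicate 1 and 0.13 without replicate 2). SCN10A, its neighbour on chromosome 3, did not share this pattern and was at 0.016 RPKM or below.

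On chromosome 2 lie SCN3A, SCN2A, SCN9A and SCN7A, between 165087526 and 166611482, and each had its own pattern. SCN3A, the main form of embryonic brain, stood at 3.81 and 3.68 RPKM in d4 DZ+PGCLC against 0.0812 and 0.167 RPKM in 4i ESC (4.13 ± 0.45, adjusted p = 0.000308) and at 2.69 and 1.36 RPKM in DM+PGCLC (3.2 ± 0.45 against 4i ESC, adjusted p = 0.000958), and was lower on day 8 than on day 4 (-2.53 ± 0.45, adjusted p = 0.00599). SCN7A, a sodium sensor, was highest in N3+PGCLC, at 0.844 and 4.79 RPKM, where the library with more MYL7 was also the higher one. Over the 5 of 8 cardiac markers listed, the N3+PGCLC libraries summed to 7.69 and 36.7 RPKM, of which MYL7 supplied 5.92 and 33.1 RPKM. Those of 4i ESC summed to 16.4 to 26.4 RPKM. The part of cardiac or other cells in the SCN7A levels was not tested. SCN9A, a pain-related gene, was at 0.635 and 0.514 RPKM in d8 DZ+PGCLC against 2.29 and 2.42 RPKM in 4i ESC, and SCN2A was under 0.61 RPKM in every library with no call.

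Of the sodium channel beta subunits, which tether and tune the alpha chain, SCN3B and SCN4B were called higher in d8 DZ+PGCLC than in DM+PGCLC. SCN3B stood at 2.9 and 2.85 RPKM in d8 DZ+PGCLC against 0.344 and 0.752 RPKM in DM+PGCLC (2.27 ± 0.42, adjusted p = 0.00226), and at 1.63 and 1.82 RPKM in d4 DZ+PGCLC against 0.109 and 0.246 RPKM in 4i ESC (2.76 ± 0.42, adjusted p = 0.00135). SCN4B was at 0.493 and 0.74 RPKM in d8 DZ+PGCLC against 0.0195 and 0.166 RPKM in DM+PGCLC (1.99 ± 0.73, adjusted p = 0.0442), a call lost without DM+PGCLC replicate 1, either d8 library or either 4i ESC library, with adjusted p between 0.0638 and 0.217. SCN2B was under 0.4 RPKM in every library.

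SCNN1A, the alpha chain of the epithelial sodium channel that takes up sodium in kidney and airway (chr12:6346843-6377730, minus strand), was the most abundant channel gene of 4i ESC at 55 and 45.4 RPKM. It stood at 7.45 and 11.4 RPKM in N3+PGCLC, 8.08 and 6 in DM+PGCLC, 0.302 and 1.9 in d4 DZ+PGCLC and 3.5 and 6.71 in d8 DZ+PGCLC. No library of another group overlapped those of 4i ESC. The difference from 4i ESC was -5.8 ± 0.7 in d4 DZ+PGCLC (adjusted p = 0.00047) and -3.34 ± 0.7 in d8 DZ+PGCLC (adjusted p = 0.00409). In N3+PGCLC it was -2.43 ± 0.7 (adjusted p = 0.0315), a call lost without any 1 library but those of d4 DZ+PGCLC, with adjusted p between 0.0512 and 0.134. In DM+PGCLC it was -2.83 ± 0.7 (adjusted p = 0.0108), lost without 4i ESC replicate 1 (0.0584) or DM+PGCLC replicate 2 (0.0638). SCNN1D, the delta chain, was highest in DM+PGCLC, at 11.6 and 7.42 RPKM against 1.82 and 3.05 RPKM in N3+PGCLC (1.93 ± 0.33, adjusted p = 0.00463), and SCNN1B was under 0.3 RPKM in every library.

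**Figure D3:**
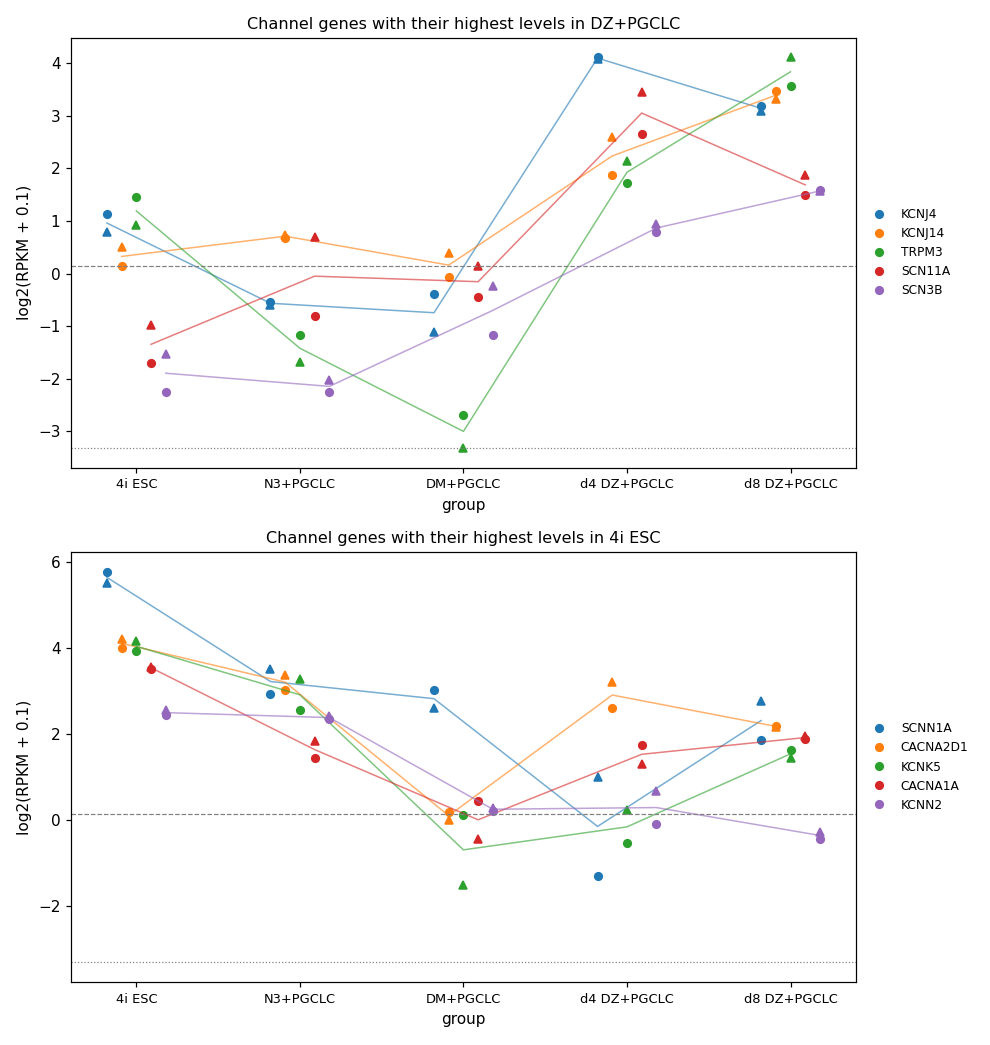
Level of 10 channel genes, as log2(RPKM + 0.1), in the 5 groups, for genes highest in DZ+PGCLC (upper panel) and in 4i ESC (lower panel). Circles are replicate 1, triangles replicate 2, lines join group means, the dashed line is 1 RPKM and the dotted line 0 RPKM. KCNJ4 stands above the other groups in DZ+PGCLC on both days and TRPM3 on day 8, and SCNN1A is the highest gene in 4i ESC.

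Calcium channels are complexes of an alpha1 pore, an alpha2delta chain that carries the pore to the membrane and a cytoplasmic beta chain. The alpha2delta genes held the highest channel level of the data. CACNA2D2 (chr3:50362613-50504244, minus strand), a target of gabapentin-like drugs, stood at 15 and 15.8 RPKM in 4i ESC, 297 and 142 in N3+PGCLC, 284 and 463 in DM+PGCLC, 12.3 and 16.3 in d4 DZ+PGCLC and 10.2 and 9.63 in d8 DZ+PGCLC. CACNA2D3 (chr3:54122552-55074557, plus strand) went with it at 2.18 and 5.1 RPKM in 4i ESC, 29 and 19.6 in N3+PGCLC, 30.9 and 30.7 in DM+PGCLC, 3.1 and 3.17 in d4 DZ+PGCLC and 0.925 and 1.02 in d8 DZ+PGCLC. The lowest N3+PGCLC or DM+PGCLC library was above every library of the other groups in both genes. CACNA2D2 was higher in N3+PGCLC than in 4i ESC (3.73 ± 0.36, adjusted p = 0.000642) and lower in d8 DZ+PGCLC than in DM+PGCLC (-5.18 ± 0.36, adjusted p = 3.26e-05), and CACNA2D3 likewise (2.8 ± 0.38, adjusted p = 0.00206, and -4.85 ± 0.38, adjusted p = 5.06e-05).

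CACNA2D1, the other gabapentin target, was the mirror image in DM+PGCLC. It stood at 15.9 and 18.5 RPKM in 4i ESC, 8.09 and 10.3 in N3+PGCLC, 1.04 and 0.9 in DM+PGCLC, 5.96 and 9.17 in d4 DZ+PGCLC and 4.46 and 4.36 in d8 DZ+PGCLC. DM+PGCLC was lower than N3+PGCLC (-3.11 ± 0.26, adjusted p = 0.000326), and d8 DZ+PGCLC higher than DM+PGCLC (2.08 ± 0.26, adjusted p = 0.000366). CACNA2D4 was at 1.46 RPKM or below, highest in DZ+PGCLC. The 3 abundant alpha2delta genes thus gave N3+PGCLC all of CACNA2D1, CACNA2D2 and CACNA2D3 above 8 RPKM, and DM+PGCLC only CACNA2D2 and CACNA2D3.

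**Figure D4:**
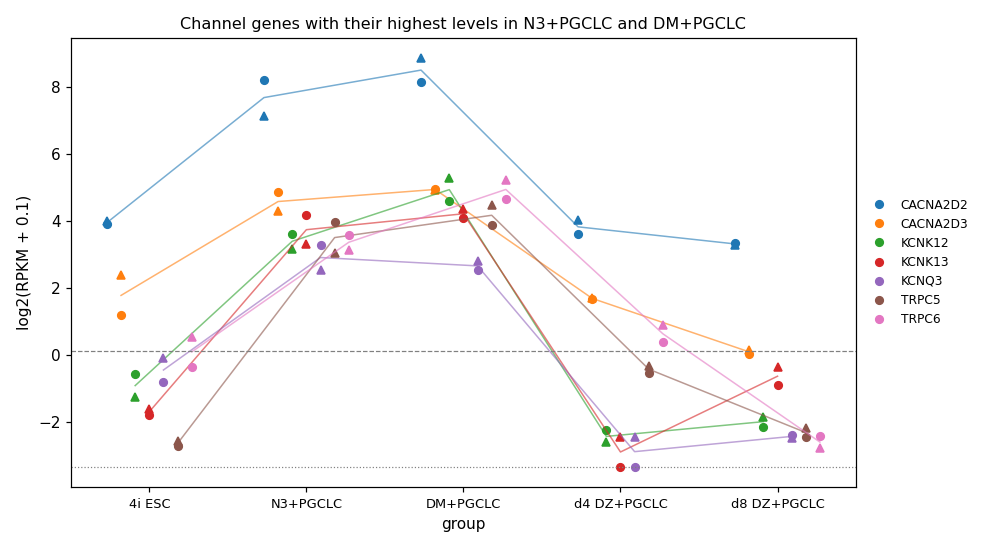
Level of 7 channel genes, as log2(RPKM + 0.1), in the 5 groups. Circles are replicate 1, triangles replicate 2, lines join group means, the dashed line is 1 RPKM and the dotted line 0 RPKM, and all 7 genes have their 4 highest libraries in N3+PGCLC and DM+PGCLC.

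The pore-forming alpha1 genes were between 0.0917 and 21 RPKM. CACNA1A, the P/Q-type gene of nerve terminals, was lowest in DM+PGCLC at 1.26 and 0.636 RPKM and highest in 4i ESC at 11.4 and 11.7 RPKM (-3.54 ± 0.35, adjusted p = 0.00024). It stood at 3.58 and 3.75 RPKM in d8 DZ+PGCLC, above DM+PGCLC (1.91 ± 0.35, adjusted p = 0.00229). CACNA1D, an L-type gene of endocrine and pacemaker cells, stood at 0.708 and 0.703 RPKM in 4i ESC, 2.74 and 3.04 in N3+PGCLC, 8.12 and 9.09 in DM+PGCLC, 11.1 and 21 in d4 DZ+PGCLC and 1.38 and 1.32 in d8 DZ+PGCLC. It was called higher than 4i ESC in N3+PGCLC (1.89 ± 0.33, adjusted p = 0.00503), DM+PGCLC (3.43 ± 0.33, adjusted p = 0.000205) and d4 DZ+PGCLC (4.25 ± 0.33, adjusted p = 8.96e-05), and was lower on day 8 than on day 4 of DZ+PGCLC (-3.41 ± 0.33, adjusted p = 0.000879).

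CACNA1B, the N-type gene, was highest in DM+PGCLC, at 9.24 and 17.8 RPKM against 4.15 and 2.64 RPKM in N3+PGCLC (1.92 ± 0.38, adjusted p = 0.00815). The T-type gene CACNA1G stood at 0.506 and 0.558 RPKM in DM+PGCLC against 5.22 and 2.27 RPKM in N3+PGCLC (-2.49 ± 0.51, adjusted p = 0.00913), where it was highest. Its relative CACNA1I was highest in d8 DZ+PGCLC, at 1.13 and 1.8 RPKM against 0.349 and 0.0917 RPKM in DM+PGCLC (2.38 ± 0.48, adjusted p = 0.00336). CACNA1C, the L-type gene of heart, lay between 1.32 and 4.29 RPKM with no call, and CACNA1F between 0.184 and 1.42 RPKM. By group means the most abundant alpha1 gene was CACNA1A in 4i ESC, CACNA1G in N3+PGCLC, CACNA1B in DM+PGCLC and d8 DZ+PGCLC and CACNA1D in d4 DZ+PGCLC. The lead of CACNA1G in N3+PGCLC over CACNA1B and CACNA1C was smaller than the gap between its 2 libraries.

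All 3 listed beta subunit genes were expressed in every group. CACNB3 was highest in DM+PGCLC, at 29.6 and 35.9 RPKM against 12.8 and 12.4 RPKM in 4i ESC (1.36 ± 0.15, adjusted p = 0.000377), CACNB4 in d4 DZ+PGCLC, at 9.79 and 10.4 RPKM against 3 and 3.13 RPKM in 4i ESC (1.69 ± 0.32, adjusted p = 0.00351), and CACNB1 in d8 DZ+PGCLC at 12 and 13.3 RPKM. The gamma subunit genes CACNG4, CACNG5, CACNG7 and CACNG8 are best known for trafficking AMPA receptors. CACNG4 and CACNG5, neighbours on chromosome 17, were lower than 4i ESC in d8 DZ+PGCLC, at 0.0748 and 0.0909 RPKM against 1.58 and 2.37 RPKM (-3.48 ± 0.41, adjusted p = 0.000323) and at 0.00979 and 0.168 RPKM against 1.78 and 0.833 RPKM (-2.95 ± 0.59, adjusted p = 0.0034). CACNG7 was lower in d4 DZ+PGCLC, at 0.323 and 0.511 RPKM against 3.23 and 2.88 RPKM in 4i ESC (-2.63 ± 0.45, adjusted p = 0.00224). CACNG8 was highest in d8 DZ+PGCLC at 2.86 and 2.6 RPKM, and CACNG1, a skeletal muscle subunit gene, was listed at 0 except in d4 DZ+PGCLC (0.24 and 0.0771 RPKM).

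HCN channels open on hyperpolarisation and pace heart and neurons. HCN2 was at 2.28 and 2.53 RPKM in 4i ESC, 11.1 and 6.26 in N3+PGCLC, 12.6 and 7.48 in DM+PGCLC, 0.167 and 0.349 in d4 DZ+PGCLC and 1.78 and 2.04 in d8 DZ+PGCLC. It was lower in d8 DZ+PGCLC than in DM+PGCLC (-2.29 ± 0.43, adjusted p = 0.00232) and higher on day 8 than on day 4 of DZ+PGCLC (2.53 ± 0.43, adjusted p = 0.00503). HCN4, the gene of the sinus node, was at 0.382 to 0.673 RPKM in the 4 DZ+PGCLC libraries and 2.38 to 5.88 RPKM in the 6 of DM+PGCLC, N3+PGCLC and 4i ESC (d8 DZ+PGCLC minus DM+PGCLC -2.75 ± 0.4, adjusted p = 0.000748).

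CLCN7, the lysosomal chloride-proton exchanger gene (chr16:1444934-1475077, minus strand), was the most abundant CLC gene in every library. It stood at 35.4 and 35.2 RPKM in 4i ESC, 53.9 and 38 in N3+PGCLC, 79.3 and 107 in DM+PGCLC, 68.9 and 103 in d4 DZ+PGCLC and 116 and 87.1 in d8 DZ+PGCLC. It was higher than 4i ESC in DM+PGCLC (1.38 ± 0.27, adjusted p = 0.00408), d4 DZ+PGCLC (1.25 ± 0.27, adjusted p = 0.00647) and d8 DZ+PGCLC (1.5 ± 0.27, adjusted p = 0.00207). Without d4 replicate 2 the d4 difference was 0.96, under the fold threshold. The endosomal exchanger genes CLCN6 and CLCN4 did not follow. CLCN6 was highest in 4i ESC (26.5 and 22.9 RPKM), and CLCN4 was lowest in N3+PGCLC (0.578 and 0.752 RPKM, against 4.43 and 4.43 RPKM in 4i ESC, -2.58 ± 0.32, adjusted p = 0.0016). At the plasma membrane, CLCN2 was lowest in DM+PGCLC, and stood at 11.6 and 8.31 RPKM in d8 DZ+PGCLC against 2.41 and 3.79 RPKM in DM+PGCLC (1.67 ± 0.33, adjusted p = 0.00292), with FAM131A exons on the other strand covering 24.7% of its exon bases. FAM131A stood at 30.7 and 29.1 RPKM in d8 DZ+PGCLC against at most 11.6 RPKM in DM+PGCLC, and its part in the CLCN2 difference was not tested. The skeletal muscle gene CLCN1 was under 1 RPKM in every library.

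In the TRPC family, TRPC5 and TRPC6 shared the pattern of KCNK12, KCNK13 and CACNA2D2. TRPC6, a channel opened by diacylglycerol (chr11:101451564-101872562, minus strand), stood at 0.682 and 1.37 RPKM in 4i ESC, 11.9 and 8.8 in N3+PGCLC, 25.1 and 37.4 in DM+PGCLC, 1.21 and 1.76 in d4 DZ+PGCLC and 0.09 and 0.0457 in d8 DZ+PGCLC. TRPC5, a channel of brain activated downstream of receptors (chrX:111768011-112082776, minus strand), stood at 0.0533 and 0.0705 RPKM in 4i ESC, 15.6 and 8.17 in N3+PGCLC, 14.6 and 22.1 in DM+PGCLC, 0.6 and 0.708 in d4 DZ+PGCLC and 0.0851 and 0.121 in d8 DZ+PGCLC. All N3+PGCLC and DM+PGCLC libraries were above 8 RPKM for both, and every other library below 2 RPKM. TRPC6 had the largest difference of any channel gene in d8 DZ+PGCLC minus DM+PGCLC (-7.53 ± 0.42, adjusted p = 1.57e-05), and TRPC5 stood at -6.48 ± 0.42 (adjusted p = 2.32e-05). In N3+PGCLC minus 4i ESC the differences were 3.27 ± 0.42 (adjusted p = 0.00171) for TRPC6 and 6.14 ± 0.42 (adjusted p = 0.000271) for TRPC5. The call of TRPC6 in DM+PGCLC minus N3+PGCLC (1.57 ± 0.42, adjusted p = 0.0259) was lost without DM+PGCLC replicate 2 (0.149) or N3+PGCLC replicate 2 (0.12).

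TRPC5OS, which lies within TRPC5 on the plus strand (chrX:111876051-111903990), went the other way, at 0.771 and 0.807 RPKM in d4 DZ+PGCLC and 0.408 and 0.334 RPKM in d8 DZ+PGCLC, against at most 0.0865 RPKM in the other 6 libraries (d8 DZ+PGCLC minus DM+PGCLC 1.35 ± 0.36, adjusted p = 0.0126). TRPC7 was under 0.05 RPKM in every library. TRPA1, the receptor for mustard oil and other irritants, stood at 0.142 and 0.235 RPKM in DM+PGCLC against 1.26 and 3.13 RPKM in N3+PGCLC (-2.88 ± 0.48, adjusted p = 0.00397).

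TRPM3, a heat sensor that pregnenolone sulfate also opens (chr9:70529060-71446904, minus strand), had the largest increase of the channel genes in d8 DZ+PGCLC minus DM+PGCLC (6.83 ± 0.43, adjusted p = 2.11e-05). It stood at 2.66 and 1.79 RPKM in 4i ESC, 0.348 and 0.212 in N3+PGCLC, 0.0564 and 0 in DM+PGCLC, 3.19 and 4.29 in d4 DZ+PGCLC and 11.7 and 17.1 in d8 DZ+PGCLC. Both d8 libraries were above every other library. It was lower than 4i ESC in N3+PGCLC (-2.61 ± 0.43, adjusted p = 0.00393) and DM+PGCLC (-4.19 ± 0.43, adjusted p = 0.000252) and higher in d8 DZ+PGCLC (2.64 ± 0.43, adjusted p = 0.00124). The call in d8 minus d4 DZ+PGCLC (1.91 ± 0.43, adjusted p = 0.0139) was lost without d4 replicate 1 (0.071) or d8 replicate 2 (0.0887). TRPM4, a calcium-activated sodium and potassium channel, was the most abundant TRP gene in 4i ESC and DZ+PGCLC, at 23.8 and 17 RPKM in d8 DZ+PGCLC against 8.49 and 6.05 RPKM in DM+PGCLC (1.47 ± 0.29, adjusted p = 0.00329). TRPM6, the magnesium channel of gut and kidney, was highest in DM+PGCLC (2.01 and 3.62 RPKM). TRPM2 reached 2.25 RPKM, with 0.413 and 2.06 RPKM in 4i ESC, and TRPM5 was under 0.13 RPKM.

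Of the 4 TRPV genes, 3 were called higher in DM+PGCLC than in N3+PGCLC and 0 lower (13.9% and 12.1% of all listed genes). TRPV1, the capsaicin receptor, stood at 3.48 and 4.83 RPKM in 4i ESC, 3.95 and 5.05 in N3+PGCLC, 8.73 and 12 in DM+PGCLC, 5.28 and 9.37 in d4 DZ+PGCLC and 13.2 and 15.1 in d8 DZ+PGCLC (1.76 ± 0.33 in d8 DZ+PGCLC minus 4i ESC, adjusted p = 0.0024). TRPV6, a calcium uptake channel of gut and placenta, stood at 3.04 and 2.44 RPKM in DM+PGCLC against 0.391 and 0.378 RPKM in 4i ESC (2.54 ± 0.33, adjusted p = 0.000698). TRPV3, a warmth sensor of skin, was at 4.8 and 9.05 RPKM in DM+PGCLC and 2.99 and 2.87 RPKM in N3+PGCLC. The 3 calls in DM+PGCLC minus N3+PGCLC (1.12 to 1.18, adjusted p = 0.0287 to 0.0366) were all lost when 1 of several libraries was left out, with adjusted p up to 0.164. TRPV1 shares 27.5% of its exon bases with an overlapping gene model on its strand and 4.38% with SHPK (33.7 and 39.2 RPKM in DM+PGCLC, 17 and 17 in N3+PGCLC), so reads of the pair are hard to part. TRPV2 was called nowhere and stood at 3.85 and 18.5 RPKM in N3+PGCLC, again higher in the library with more MYL7. The part of cardiac or other cells in this was not tested.

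**Figure D5:**
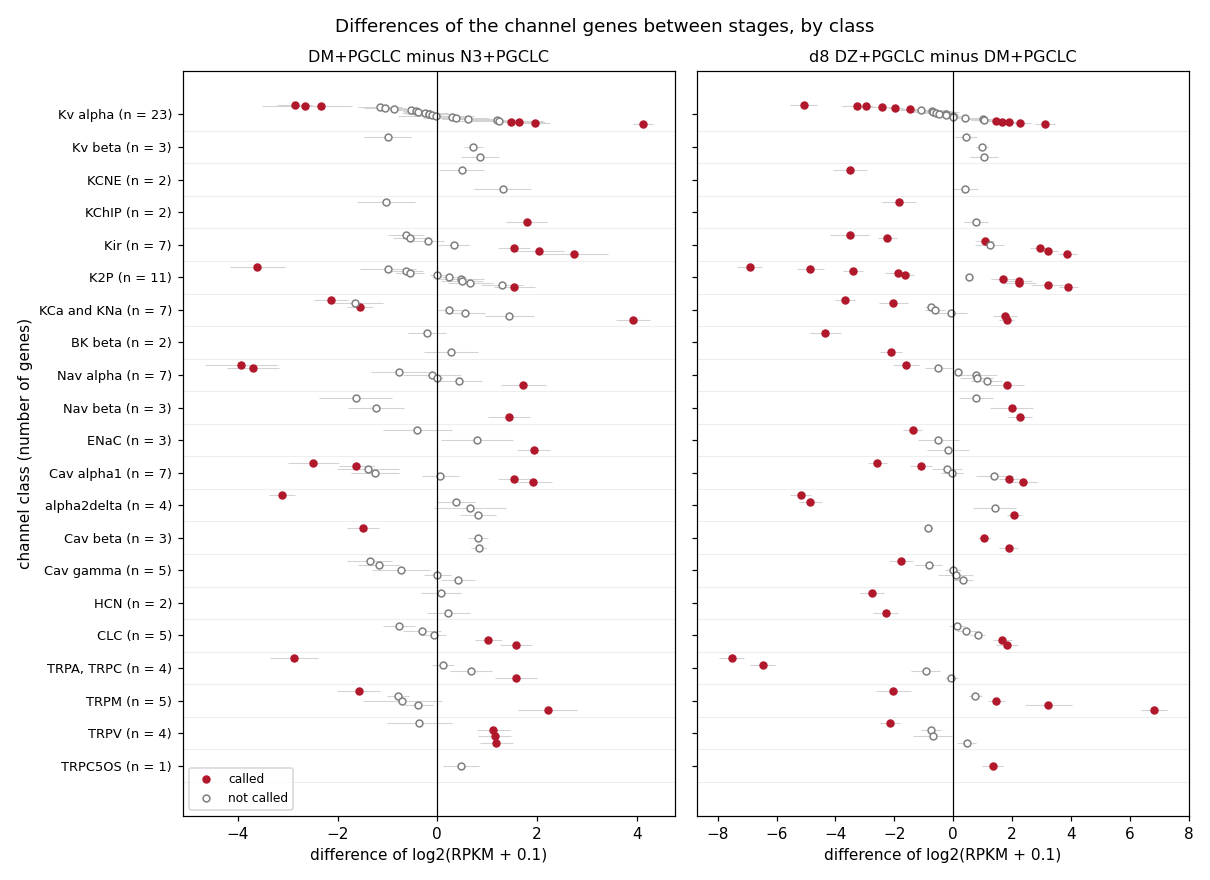
Difference of log2(RPKM + 0.1) of 110 of the 117 channel genes (1 point each, with its SE as a bar) in DM+PGCLC minus N3+PGCLC (left) and d8 DZ+PGCLC minus DM+PGCLC (right), by class. Filled points were called. In the right panel TRPC6 (-7.53), KCNK12 (-6.92) and TRPC5 (-6.48) lie farthest left and TRPM3 (6.83) farthest right.

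Markers of neurons and muscle moved between groups as well. The 11 listed neuron markers summed to 321 to 331 RPKM in 4i ESC, 188 to 246 in N3+PGCLC, 358 to 430 in DM+PGCLC, 43.8 to 48.2 in d4 DZ+PGCLC and 139 to 161 in d8 DZ+PGCLC. TUBB3, which many dividing cells express, supplied most of it in DM+PGCLC (332 and 416 RPKM) but stood at 8 and 5.33 RPKM in d4 DZ+PGCLC. In d8 DZ+PGCLC, where TRPM3, KCNJ14 and SCN3B were highest, NEFM (24.2 and 25.3 RPKM), NEFL (20.5 and 25.2 RPKM) and ELAVL3 (10.4 and 18.7 RPKM) were highest as well. DCX (0 and 0.111 RPKM) and STMN2 (0 and 0.0807 RPKM), markers of young neurons, were at or near 0. Of the 11, 5 were called higher (ELAVL3, INA, MAP2, NEFL and NEFM) and 4 lower in d8 DZ+PGCLC than in DM+PGCLC (28.1% and 27.5% of all listed genes). Against 4i ESC, 2 were higher and 7 lower (28.5% and 27.4%). Smooth muscle markers summed to 20.1 to 76.1 RPKM in the other groups against 414 to 445 RPKM in 4i ESC, where TAGLN supplied 387 and 351 RPKM. Of the 6, 4 were called lower and 0 higher than in 4i ESC in d4 DZ+PGCLC (24.6% and 17.3% of all listed genes). In d8 DZ+PGCLC 3 were lower and 0 higher (27.4% and 28.5%). ACTA2 was not called, at 41.2 and 36.6 RPKM in d4 and 35.6 and 41.3 RPKM in d8 DZ+PGCLC against 22.6 and 27.8 RPKM in 4i ESC. Of the 5 listed endothelial markers only CDH5, which the study also uses as a marker of migratory germ cells, was called higher in DM+PGCLC than in 4i ESC and N3+PGCLC (127 and 202 RPKM in DM+PGCLC). KDR and TEK were called lower there, KDR at 3.36 and 1.44 RPKM in DM+PGCLC against 14.4 and 38.8 RPKM in N3+PGCLC, and TEK at 0.575 and 0.202 RPKM against 5.49 and 11.5 RPKM. The part of neurons and muscle cells in the channel levels was not tested.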

How the data were processed

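RNA was sequenced in bulk in 10 libraries (5 groups of 2), and the 3 CUT&RUN samples of the 13 were not analysed here. Per the study's methods, the authors trimmed reads with Trim Galore, kept uniquely mapped reads from STAR on GRCh38.p13, computed RPKM with Cufflinks and selected genes with edgeR's generalised linear model. The submitters' notes also name HOMER, Bowtie2 2.2.5 and hg38, and none of the sources states whether counting used the strand. The authors deposited log2(RPKM + 0.1) per library in 3 tables of genes that differed from 4i ESC. Their own fold changes and FDR values and 8 gene ontology enrichment tables were not used, and no per-sample column was left unmatched (0).

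The 3 tables were joined to 9706 genes, and levels were turned back into RPKM. limma 3.58.1 (R 4.3.3, intensity trend) was fitted on log2(RPKM + 0.1) of all listed genes and all 10 libraries (5 residual degrees of freedom), with Benjamini-Hochberg adjustment, and was tested on simulated data. Read counts were not recovered, since low genes gave depth only relative to 4i ESC replicate 1, so no count test was run and no counting interval is given.

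The members, their classes and the lists were chosen with earlier results of these data known. Fuller values go to genes with a mean of 1 RPKM or more in a group that were called in at least 1 comparison and were among the 3 of their class with the largest called difference, and to the 10 with the highest mean. Single results of 7 of the 117 genes are not reported here, and counts and medians include them. Other genes named were chosen after their values were seen. Alternatives were a pseudocount of 1 RPKM, only genes at 1 RPKM in at least 2 libraries, no intensity trend, libraries centred on their median, a replicate block, the spread from only the 4 libraries compared, and leaving out each library. Coordinates and exon overlaps are GENCODE on GRCh38, in which all 117 genes were found, and promoters are from RefSeq.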

Additional observations from a re-analysis of the deposited data

How the results depend on the processing

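No call of a named gene reversed under any alternative. Of 212 such calls, 161 remained with a pseudocount of 1 RPKM, 203 of the 206 that could be tested with only genes at 1 RPKM in at least 2 libraries, 212 without the intensity trend, 206 with libraries centred on their median, 206 with the replicate block and 155 with the spread from the 4 libraries compared. Leaving out 1 library in turn ended 71 of them under at least 1 omission. With a pseudocount of 1 RPKM the channel genes called numbered 45 in DM+PGCLC minus 4i ESC (69 otherwise), 30 in d4 DZ+PGCLC minus 4i ESC (51), 35 in d8 DZ+PGCLC minus 4i ESC (56) and 19 in d8 minus d4 DZ+PGCLC (33). With the spread from the 4 libraries compared they numbered 10 in N3+PGCLC minus 4i ESC (34) and 5 in DM+PGCLC minus N3+PGCLC (38). Leaving out 1 library gave 18 to 32 in N3+PGCLC minus 4i ESC, 46 to 70 in DM+PGCLC minus 4i ESC, 41 to 54 in d4 DZ+PGCLC minus 4i ESC, 45 to 60 in d8 DZ+PGCLC minus 4i ESC, 21 to 41 in DM+PGCLC minus N3+PGCLC, 55 to 67 in d8 DZ+PGCLC minus DM+PGCLC and 14 to 34 in d8 minus d4 DZ+PGCLC. The cause of these shifts was not tested. Shares of all listed genes called under each alternative are not given, here or for the replicate block below. These counts therefore do not show whether the gap between channel genes and all listed genes in DM+PGCLC minus 4i ESC remained.

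Same-numbered libraries did not deviate together (correlations of -0.13 to 0.1). Whether they were made together is not stated in the labels, and these correlations cannot show it. With the replicate block the counts were 32 in N3+PGCLC minus 4i ESC, 66 in DM+PGCLC minus 4i ESC, 49 in d4 DZ+PGCLC minus 4i ESC, 55 in d8 DZ+PGCLC minus 4i ESC, 39 in DM+PGCLC minus N3+PGCLC, 66 in d8 DZ+PGCLC minus DM+PGCLC and 33 in d8 minus d4 DZ+PGCLC. Centring moved libraries by -0.2 to 0.22 on the log2 scale over 5192 genes, upper values in DM+PGCLC and lower ones in d8 DZ+PGCLC. Depth limits most the 31 genes that did not reach 1 RPKM in 2 libraries, where a listed 0 may be a level too low to detect.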

Other observations

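Other ion transport genes, from lists chosen with earlier results of these data known, moved as well. Of 15 genes of the sodium-potassium ATPase, the pump that builds the gradients on which these channels act, 12 were listed, and 9 were called lower and 1 (FXYD6) higher in DM+PGCLC than in 4i ESC (21.1% of all listed genes were lower and 23% higher). Against 4i ESC, 5 were lower and 1 higher in N3+PGCLC (12.3% and 13.8%), 7 lower and 0 higher in d4 DZ+PGCLC (24.6% and 17.3%) and 6 lower and 0 higher in d8 DZ+PGCLC (27.4% and 28.5%). In d8 DZ+PGCLC 4 were higher than in DM+PGCLC and 2 were lower (28.1% and 27.5%). Of 22 further TRP family and calcium entry genes 17 were listed, and 6 were higher (among them ORAI2, a store-operated calcium channel, and PIEZO1 and PIEZO2, which open on membrane stretch) and 0 lower in DM+PGCLC than in N3+PGCLC (13.9% and 12.1% of all listed genes). In d8 DZ+PGCLC minus DM+PGCLC 5 of these were higher and 3 lower.

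Partners of calcium and sodium channels included genes of CATSPER, the calcium channel of sperm. Of 25 partners 20 were listed, and 7 were higher and 4 lower in d8 DZ+PGCLC than in DM+PGCLC, with CATSPER1, CATSPER4 and CATSPERD among the higher and CATSPERG among the lower. Of 18 potassium channel partners 14 were listed, 2 higher and 6 lower in that comparison, with ABCC9, the sulfonylurea receptor that pairs with KCNJ8, lower as KCNJ8 was. Of 68 ligand-gated channel genes 48 were listed, 17 higher and 10 lower, and of 32 other chloride channel genes 22 were listed, 8 higher and 5 lower, OSTM1, the partner of CLCN7, among the higher. All listed genes had 28.1% higher and 27.5% lower in the same comparison.

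Neural progenitor markers, of which 6 of 8 were listed, summed to 128 to 144 RPKM in 4i ESC, 93 to 102 in N3+PGCLC, 112 to 119 in DM+PGCLC, 19.2 to 30.8 in d4 DZ+PGCLC and 33.1 to 35.3 in d8 DZ+PGCLC. NES supplied most of it, with 121 and 133 RPKM in 4i ESC and 25.7 and 27.5 RPKM in d8 DZ+PGCLC. In d8 DZ+PGCLC, 3 (NEUROG2, PAX6 and SOX1) were called higher than in 4i ESC and 2 (FABP7 and NES) lower (28.5% and 27.4% of all listed genes). PAX6 stood at 5.69 and 5.85 RPKM in d8 DZ+PGCLC against 0.128 and 0.213 RPKM in 4i ESC. Pluripotency markers summed to 64.7 to 69 RPKM in d8 DZ+PGCLC, against 1493 to 1661 RPKM in 4i ESC. The 6 of 8 later germ cell markers listed summed to 4851 to 5489 RPKM in d8 DZ+PGCLC, nearly all of it DMRT1, which these cells carry as a transgene. Of the 6, 5 (DAZL, DMRT1, PIWIL1, PIWIL2 and TDRD9) were called higher there than in 4i ESC and 0 lower (28.5% and 27.4% of all listed genes). PIWIL2 stood at 3.18 and 3.68 RPKM against 0.303 and 0.388 RPKM in 4i ESC. PIWIL1 (1.05 and 0.216 RPKM) and TDRD9 (0.109 and 0.261 RPKM) were low in d8 DZ+PGCLC.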
